A study of Mus musculus with 14 samples.

Results

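A set of 9 genes that encode transcription factors of microglial and macrophage identity were followed across the cells of the mouse spinal cord: Sall1, Sall3, Spi1, Irf8, Mef2c, Runx1, Cebpa, Bhlhe40 and Bhlhe41. They were chosen by their symbols, and each symbol matched 1 of the 55335 genes in the count tables, so that 9 of 9 members were found. Single-cell RNA sequencing of whole spinal cords (10x Genomics 3' chemistry) had been done in 14 libraries from mice at P115-120 (days after birth), a stage that the study calls mid-disease, to ask how the myeloid receptor Clec7a (Dectin-1) shapes microglial responses in amyotrophic lateral sclerosis.

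The SOD1G93A group (3 libraries, strain B6SJL-Tg(SOD1*G93A)1Gur/J) carried a mutant human SOD1 transgene, a common model of amyotrophic lateral sclerosis. The Clec7a-KO group (4 libraries, strain B6.129S6-Clec7atm1Gdb/J) carried a disrupted Clec7a allele. The SOD1G93A/Clec7a-KO group (4 libraries, strain given as SOD1G93A/Clec7a KO) carried both, and the nTg group (3 libraries, strain given as nTg) carried neither. The transgene carries its own SOD1 regulatory sequence and is expressed widely, and the Clec7a allele is a germline one, so that neither alteration is restricted to microglia. Each of the 4 groups has a strain name of its own, so in every comparison below a difference between groups cannot be told apart from one of genetic background. The labels do not say that each library came from a separate animal, and p-values then measure the spread between these libraries.

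PU.1, the product of Spi1, is the factor on which the whole myeloid lineage depends, and IRF8, RUNX1 and C/EBP-alpha act with it in the making of macrophages. SALL1 is a zinc finger factor that, among macrophages, marks microglia and keeps their resting programme, SALL3 is its close relative, and MEF2C is a MADS-box factor that microglia share with muscle, vessels and neurons. BHLHE40 and BHLHE41 are paired basic helix-loop-helix repressors that bind the E-box CACGTG and act in the circadian clock and in immune cells, including macrophages. Resting microglia are known to lose part of this programme when they react to disease.

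Stretches upstream of Sall1, Irf8, Mef2c and Bhlhe41 are shown, so that the presence or absence of the motifs searched below can be read. Bhlhe40 is not shown, since the promoter table held no match for it by symbol. The RefSeq promoter table used here (GRCm38.p6) had a match by symbol for 6 of the 9 genes (Sall1, Irf8, Mef2c, Runx1, Cebpa and Bhlhe41). Each stretch below runs 5′ to 3′ on the strand of the gene and ends at the last base before the annotated gene start, and capitals mark a motif match. Sall1 lies on chromosome 8 from 89027235 to 89044162 on the minus strand, and chr8:89044163-89044412 lies upstream of it. Irf8 lies on chromosome 8 from 120736358 to 120756694 on the plus strand, downstream of chr8:120736108-120736357. Mef2c lies on chromosome 13 from 83504034 to 83667080 on the plus strand, downstream of chr13:83503784-83504033. Bhlhe41 lies on chromosome 6 from 145858243 to 145865558 on the minus strand, downstream of chr6:145865559-145865670.
Sall1: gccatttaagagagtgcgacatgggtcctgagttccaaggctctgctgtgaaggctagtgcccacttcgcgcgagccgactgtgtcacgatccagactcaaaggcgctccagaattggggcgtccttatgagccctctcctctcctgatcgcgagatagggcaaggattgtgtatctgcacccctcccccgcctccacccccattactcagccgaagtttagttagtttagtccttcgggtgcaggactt
Irf8: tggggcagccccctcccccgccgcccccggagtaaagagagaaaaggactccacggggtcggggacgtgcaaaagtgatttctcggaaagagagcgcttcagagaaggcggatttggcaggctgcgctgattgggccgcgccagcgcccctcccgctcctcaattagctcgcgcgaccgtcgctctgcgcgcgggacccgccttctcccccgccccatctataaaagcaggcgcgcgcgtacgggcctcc
Mef2c: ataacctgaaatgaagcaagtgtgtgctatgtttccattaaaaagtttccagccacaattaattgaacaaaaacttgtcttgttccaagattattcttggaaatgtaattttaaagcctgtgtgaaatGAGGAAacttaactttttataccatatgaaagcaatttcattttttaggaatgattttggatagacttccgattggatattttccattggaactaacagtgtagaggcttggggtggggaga
Bhlhe41: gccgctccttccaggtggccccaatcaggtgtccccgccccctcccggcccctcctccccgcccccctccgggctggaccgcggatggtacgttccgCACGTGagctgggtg

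A set of 6 motifs was searched on both strands of the 300 bases from 250 before to 50 after each start: CACGTG (E-box of the BHLHE40 type), GAGGAA (PU.1 core), the IRF motif, TGTGGT (RUNX), TTGCNNAA (C/EBP) and the MEF2 motif. Over the 32851 promoters of the table, 7.15% held the E-box, 28.3% the PU.1 core, 3.44% the IRF motif, 16.8% the RUNX motif, 10.8% the C/EBP motif and 3.69% the MEF2 motif. Bhlhe41 held 1 E-box at -153 from the RefSeq start, the letters that its own protein family binds. Mef2c held 1 PU.1 core at -122. Runx1 held 1 E-box at -71 and 2 RUNX matches at 29 and 37. In the first promoters of Sall1, Irf8 and Cebpa, none of the 6 motifs was found, which says only that these letters are absent from the window.

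The deposited tables held 108892 barcodes, of which 89756 cells were kept, and 25 clusters were made from variable genes that left out the 9 members. A total of 52443 cells in 8 clusters carried microglial markers, between 1017 and 7568 per library, with 10860259 to 100791806 UMIs (unique molecular identifiers, each counting 1 captured RNA molecule). All 12 microglial markers were detected in each of these clusters. No cluster was named oligodendrocyte, and 1 cluster of 3716 cells with both endothelial and mural markers stayed unnamed. Libraries shared between 2 and 44 barcodes per pair. Levels are CPM (UMIs per 1000000 UMIs). For Clec7a the totals were scaled by the TMM factors described below, and for Xist and the summed markers of this paragraph they were not. Clec7a in microglia lay at 883 to 1035 CPM in SOD1G93A, 28.6 to 85.7 in nTg, 1.98 to 3.79 in SOD1G93A/Clec7a-KO and 0.740 to 2.46 in Clec7a-KO, on the side that each label gives. Libraries of 1 group differed in the states of their microglia: cluster 1, in which the interferon list was highest while its leading genes were mostly inflammatory ones such as Il12b, Acod1 and Il6, took 4.33% of microglia in 1 SOD1G93A library and 41.7% and 53.0% in the other two. Clec7a itself was also among the leading genes of cluster 1, which took 1.09% to 2.18% of microglia in SOD1G93A/Clec7a-KO. Cluster 1 was given no name. In SOD1G93A/Clec7a-KO, cluster 2, led by genes such as Il1b and Tnf, took 11.1% to 67.5%. It is called the inflammatory cluster because that list was its highest (mean log2 0.551, beside 0.521 for MHC class II). Cluster 1 scored higher on the inflammatory list (1.034), so the name does not set cluster 2 apart from cluster 1. Xist, the X-inactivation transcript, lay at 487 to 1666 CPM in 4 libraries (SOD1G93A/Clec7a-KO library 4, nTg libraries 1 and 3, Clec7a-KO library 3) and at most at 3.56 in the others, so that no SOD1G93A library had it. Summed markers of border-associated macrophages in microglia lay at 1.66 to 17.0 CPM without and 40.4 to 96.0 with the transgene. Those of monocytes lay at 7.98 to 40.5 and 122 to 237. The part of these markers in the results below was not tested. Ms4a7 is 1 of the 8 genes in the border-associated sum. Over cells of all groups it lay at 0.32 CPM in microglial cluster 3, 24.1 in cluster 0 and 112 in cluster 4. The border-associated sum thus need not speak for the other genes of its list.

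Across cell classes, 4 of the 9 genes (Sall3, Irf8, Cebpa and Bhlhe41) had their highest mean level in microglia. Bhlhe40 went against the name of the set, with microglia near the bottom of its order. Levels are CPM over the class's UMIs after TMM scaling, which sets a typical gene equal between libraries, given as mean ± SD over libraries with at least 20 cells of the class. The 3' chemistry counts molecule ends, so that levels are not per length, and no level is compared between genes. Neighbours in an order are said to overlap where their ranges of mean ± 1 SD do. Neutrophils (122 cells) and fibroblasts (91 cells) had too few libraries with 20 cells and were left out of these orders. Classes were made from the same cells, so these are descriptions without a test.

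Sall1 was highest in ependymal cells (157 ± 23.4 CPM, n = 14), with microglia next (112 ± 54.3, n = 14) and overlapping. This microglial mean pools groups that differed. Microglia lay at 158 ± 6.42 in nTg (n = 3) and 168 ± 14.7 in Clec7a-KO (n = 4), overlapping ependymal cells of the same groups (167 ± 6.94 and 175 ± 11.7). In SOD1G93A (71.3 ± 9.04, n = 3) and SOD1G93A/Clec7a-KO (54.0 ± 9.59, n = 4) they lay below ependymal cells without overlap (159 ± 23.1 and 131 ± 19.1). Over all libraries astrocytes followed at 42.4 ± 6.37, below microglia without overlap, and neurons at 41.6 ± 27.0 (n = 13). In border-associated macrophages, which sit in the meninges and perivascular spaces, Sall1 lay at 7.44 ± 7.95 (n = 13), and in endothelial cells at 2.00 ± 1.39, the lowest of the 9 classes. Border-associated macrophages rest on 29 Sall1 UMIs in all. Sall3 was highest in microglia (91.5 ± 10.5), above neurons (45.4 ± 33.3), astrocytes (39.3 ± 8.42) and ependymal cells (37.4 ± 5.00), with no overlap between microglia and neurons. Border-associated macrophages had 12.6 ± 20.0, and mural cells, the pericytes and smooth muscle cells of vessels, 1.34 ± 2.30.

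The PU.1 group was highest in microglia and border-associated macrophages. Spi1 lay at 428 ± 92.7 CPM in border-associated macrophages and at 412 ± 73.8 in microglia, which overlapped, and no other class exceeded 85.2 ± 124 (T and NK cells, n = 10). Irf8 was highest in microglia (507 ± 148), overlapping border-associated macrophages (329 ± 149). T and NK cells followed at 180 ± 166, which overlapped border-associated macrophages, and every other class lay at or below 36.3 ± 41.2. Runx1, the core binding factor of blood formation, lay at 388 ± 139 in border-associated macrophages and 336 ± 53.5 in microglia, with microglia the highest class in nTg and Clec7a-KO and border-associated macrophages in the groups with the transgene. Cebpa, a factor of myeloid commitment, lay at 222 ± 50.6 in microglia and 129 ± 42.7 in border-associated macrophages, which overlapped.

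Mef2c and the Bhlhe pair did not have both microglia and border-associated macrophages at the top of their order. Mef2c was highest in mural cells (702 ± 86.2 CPM), then border-associated macrophages (564 ± 98.8), then microglia (527 ± 79.0), all overlapping their neighbour. By group, microglia lay at 569 ± 20.7 in nTg, 452 ± 33.2 in SOD1G93A and 469 ± 5.02 in SOD1G93A/Clec7a-KO, below the highest class of the same group without overlap (719 ± 40.2, n = 2, in border-associated macrophages, and 657 ± 25.5 and 684 ± 49.8 in mural cells). In Clec7a-KO they lay at 611 ± 67.4 and overlapped mural cells (768 ± 126). Endothelial cells followed at 183 ± 18.4, above neurons at 106 ± 37.7. Bhlhe40 was highest in T and NK cells (330 ± 155) and endothelial cells (219 ± 60.9), and microglia were the 8th of 9 classes at 42.8 ± 44.5. By group, microglia were the lowest class in nTg (4.18 ± 1.49) and Clec7a-KO (5.04 ± 2.30), 4th of 9 in SOD1G93A (72.7 ± 27.3) and 5th of 9 in SOD1G93A/Clec7a-KO (87.3 ± 34.2). Its relative Bhlhe41 was highest in microglia (149 ± 56.1), followed by astrocytes (96.4 ± 23.0) and neurons (83.5 ± 25.2), with 2.99 ± 1.69 in endothelial cells.

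**Figure D1:**
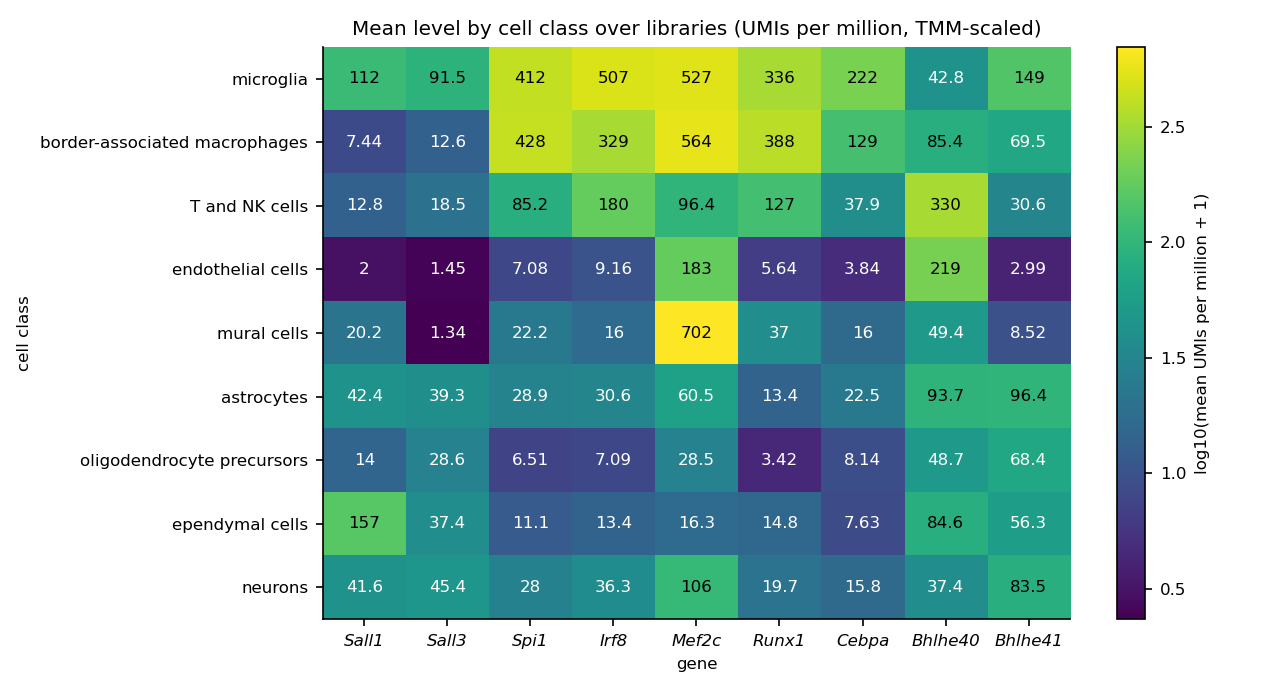
Mean level of each gene (columns) in each of 9 cell classes (rows) over libraries, as TMM-scaled CPM; colour shows log10 of the mean plus 1. Spi1, Irf8, Runx1 and Cebpa are highest in the upper pair of rows, while Sall1 peaks in ependymal cells (157) and microglia (112) and Bhlhe40 in T and NK cells (330).

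By the named-gene rule, the 3 genes whose mean log2 levels over the 9 classes were most like each member were listed as a description. Pearson's r over 9 classes was 0.997 to 0.999 for the myeloid genes Cd68, Cd300c2 and C3ar1 beside Spi1 and Il10ra and Ccl4 beside Irf8, and 0.996 for Tyrobp beside Irf8. Mef2c was most like Il13ra1 (0.991) and Tnip2 (0.986). Runx1 was most like Dock8 (0.962), Nckap1l (0.955) and Cebpb (0.955), and Cebpa most like Pla2g15 (0.989), Lgmn (0.982) and Creg1 (0.975). Sall1 was most like Gm38071 (0.894), Ak1 (0.892) and Cxxc5 (0.880), and Sall3 most like Whrn (0.950), Fat3 (0.926) and Cebpzos (0.916). Bhlhe40 was most like Tnfrsf25 (0.935), Zdhhc18 (0.932) and Hint3 (0.903), and Bhlhe41 most like AC160336.1 (0.959), Ppp1r9a (0.915) and Slc46a1 (0.910). The classes share libraries and differ in depth.

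In microglia, the members with the largest differences between groups with and without the transgene were Sall1 and Bhlhe40. Sall1 was lower and Bhlhe40 higher in SOD1G93A than in nTg and in SOD1G93A/Clec7a-KO than in Clec7a-KO, under both scalings described below. UMIs were summed per library and tested with edgeR's quasi-likelihood test over 16727 genes, with Benjamini-Hochberg adjustment over all of them. In SOD1G93A against nTg, 3 of the 9 genes passed an adjusted p of 0.05 (Sall1 lower, Irf8 and Bhlhe40 higher), where 32.9% of all genes passed (19.7% higher and 13.2% lower). In SOD1G93A/Clec7a-KO against Clec7a-KO, 8 of 9 passed (Spi1, Irf8, Bhlhe40 and Bhlhe41 higher, Sall1, Mef2c, Runx1 and Cebpa lower), where 46.5% of all genes passed (25.6% higher and 20.9% lower). The count of members in the first contrast is close to the share of all genes. That in the second is above it with all libraries in the fit, and closer to it in some fits with fewer. It was 4 without Clec7a-KO library 2 (40.3% of all genes), and 5 without Clec7a-KO library 3 (40.6%) or without SOD1G93A/Clec7a-KO library 2 (43.9%), 3 (40.6%) or 4 (43.6%). The groups of 3 against 3 did not overlap in level for 4 of the 9 members in the first contrast (53.9% of all genes). The groups of 4 against 4 did not overlap for 5 of 9 in the second (36.6% of all genes).

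A set of 3 libraries, numbered 13, 15 and 16 in the labels, stood apart together in the microglial levels of some other factors. They are SOD1G93A/Clec7a-KO libraries 3 and 4 and Clec7a-KO library 4. Cebpb, an inflammatory C/EBP factor, lay at 1658, 2100 and 1619 CPM in them and at 555 to 1149 in the other 11. Jund, an AP-1 subunit, lay at 3269 and 4092 CPM against 1400 to 1861 in the other libraries with the transgene, and at 6361 against 2382 to 3433 in the others without it. Among members, these libraries had the 3 highest Bhlhe41 levels, the lowest Runx1 (225 and 248) and Irf8 (496 and 416) of the libraries with the transgene, and the lowest Irf8 (365) of those without. What sets them apart was not tested. Without these 3 libraries, an alternative chosen after the data were seen, 4 of 9 members passed in SOD1G93A against nTg (41.6% of all genes), with Mef2c added to the 3 above. In the second contrast 4 of 9 passed as well (42% of all genes), namely Sall1, Irf8, Bhlhe40 and Bhlhe41.

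The direction of the smaller differences depends on the scaling. TMM factors were 0.769 to 0.931 in libraries with the transgene and 1.04 to 1.24 in those without. With library totals in place of these factors, an alternative added after the data were seen, the median log2 fold change over all genes moved from 0.01 to -0.44 in the first contrast and from 0.00 to -0.51 in the second. Under totals 5 members passed in the first contrast (43.7% of all genes) and 6 in the second (58.3%), and the values are given with each gene below.

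**Figure D2:**
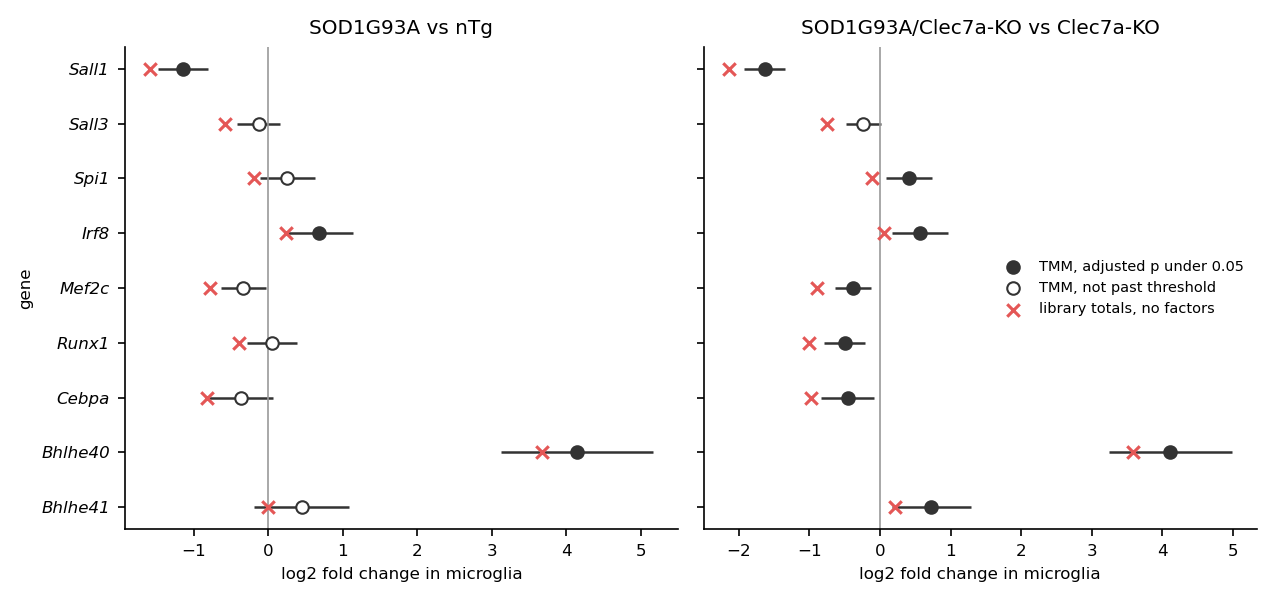
Log2 fold change of each gene (rows) in microglia for both transgene contrasts; circles are the edgeR estimates with TMM factors, filled where the adjusted p is under 0.05, bars their 95% intervals, and crosses the estimates with library totals. Every cross lies to the left of its circle, and for Spi1 it lies on the other side of 0 in both panels.

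Sall1, the factor that keeps microglia in their resting programme, lay at 152, 164 and 158 CPM in the nTg libraries and at 81.7, 65.3 and 67.0 in SOD1G93A. It lay at 189, 155, 163 and 164 in Clec7a-KO and at 66.9, 50.0, 44.4 and 54.6 in SOD1G93A/Clec7a-KO. Every library with the transgene was lower than every library without it. The log2 fold change was -1.15 (SE 0.16, edgeR adjusted p 0.000103) in SOD1G93A against nTg, a 2.21-fold lower level, and -1.64 (SE 0.14, adjusted p 6.36e-07) in SOD1G93A/Clec7a-KO against Clec7a-KO, a 3.11-fold lower level. With library totals the log2 fold changes were -1.59 and -2.14. Both calls held in all 30 alternatives tried.

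Sall3, the relative of Sall1, passed in neither comparison of the transgene under TMM scaling. It lay at 99.6 ± 11.5 CPM (SD, n = 3) in nTg, 90.9 ± 10.3 (n = 3) in SOD1G93A, 95.9 ± 7.55 (n = 4) in Clec7a-KO and 81.5 ± 6.10 (n = 4) in SOD1G93A/Clec7a-KO. The log2 fold changes of -0.13 (95% interval -0.42 to 0.15) and -0.24 (-0.48 to 0.01) did not pass (edgeR adjusted p 0.473 and 0.109), while with library totals both did, at -0.58 and -0.75. The second value also passed with DESeq2 (-0.27, adjusted p 0.0488) and without SOD1G93A library 1 (-0.29, 0.0464).

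Irf8, which acts with PU.1 in microglial development and activation, lay at 389, 400 and 408 CPM in nTg and at 723, 613 and 579 in SOD1G93A. The log2 fold change was 0.68 (SE 0.22, edgeR adjusted p 0.0271), and 0.23 with an adjusted p of 0.447 under library totals. In Clec7a-KO it lay at 432, 397, 412 and 365 and in SOD1G93A/Clec7a-KO at 611, 857, 496 and 416, so that these groups overlapped (log2 fold change 0.57, SE 0.19, adjusted p 0.0228, and 0.05 under library totals). A higher Irf8 in microglia with the transgene thus passed relative to the typical gene and not relative to all UMIs. The first call was also lost without SOD1G93A library 1 (0.52, adjusted p 0.127) or 2 (0.72, 0.0533), and without nTg library 1 (0.67, 0.0722), 2 (0.69, 0.0678) or 3 (0.70, 0.0622). It was lost as well with Xist as a covariate (0.53, 0.166) or library number as one (0.43, 0.0526). The second was lost without SOD1G93A/Clec7a-KO library 2 (0.34, 0.0846) or Clec7a-KO library 2 (0.56, 0.0512), and with only the groups compared in the fit (0.50, 0.0988). Without the libraries numbered 13, 15 and 16 the second value was 0.84 (0.00128).

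Spi1, the gene of PU.1, lay at 372, 398 and 336 CPM in nTg and at 539, 414 and 365 in SOD1G93A, which overlapped (log2 fold change 0.25, 95% interval -0.12 to 0.62, edgeR adjusted p 0.282). It lay at 391, 336, 351 and 361 in Clec7a-KO and at 410, 569, 498 and 432 in SOD1G93A/Clec7a-KO, with no overlap. The log2 fold change there was 0.41 (SE 0.15, adjusted p 0.0372). The sign turned with library totals in both contrasts, to -0.19 and -0.11, neither past the threshold. The call was lost without SOD1G93A/Clec7a-KO library 2 (0.31, adjusted p 0.109), 3 (0.33, 0.136) or 4 (0.41, 0.0587), and without Clec7a-KO library 2 (0.37, 0.0939), 3 (0.39, 0.0786) or 4 (0.41, 0.0511). It was lost as well with RLE factors (0.36, 0.0621), no filter on low counts (0.41, 0.103), only the groups compared (0.34, 0.0997), an Xist covariate (0.39, 0.0509) and without the libraries numbered 13, 15 and 16 (0.46, 0.0653).

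Mef2c lay at 547, 572 and 588 CPM in nTg and at 463, 414 and 478 in SOD1G93A, with no overlap, and the difference missed the threshold (log2 fold change -0.33, SE 0.14, edgeR adjusted p 0.0784). It passed without SOD1G93A/Clec7a-KO library 3 (-0.40, adjusted p 0.0421) or 4 (-0.40, 0.0422), fits in which the median over all genes was -0.05 beside 0.01 with all libraries. It also passed without the libraries numbered 13, 15 and 16 (-0.32, 0.0491), with RLE factors (-0.38, 0.0431) and with DESeq2 (-0.37, 0.00292). In SOD1G93A/Clec7a-KO the 4 libraries lay within 462 to 474 CPM, below all 4 of Clec7a-KO at 515 to 660 (log2 fold change -0.38, SE 0.12, adjusted p 0.0176). With library totals both contrasts passed, at -0.78 and -0.90. The call in SOD1G93A/Clec7a-KO was lost with no filter on low counts (-0.39, adjusted p 0.0886), without the cluster with Ms4a7 among its leading genes (-0.30, 0.0592) and without the libraries numbered 13, 15 and 16 (-0.34, 0.0604).

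Runx1, the core binding factor partner of PU.1, passed in 1 of the 2 contrasts. It lay at 364, 336 and 314 CPM in nTg and at 368, 360 and 323 in SOD1G93A (log2 fold change 0.05, 95% interval -0.28 to 0.38, edgeR adjusted p 0.827, and -0.40 with library totals). It lay at 349, 408, 411 and 376 in Clec7a-KO and at 304, 314, 225 and 248 in SOD1G93A/Clec7a-KO, with no overlap. The log2 fold change there was -0.50 (SE 0.13, adjusted p 0.00745), a 1.42-fold lower level, and -1.01 with library totals. This call held in 29 of 30 alternatives and was lost without the libraries numbered 13, 15 and 16 (-0.32, adjusted p 0.0616), of which the first pair are the lowest of their group. The test of the difference between the contrasts (the interaction) gave -0.55 (SE 0.21, unadjusted p 0.0172, edgeR adjusted p 1).

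Cebpa lay at 180, 286 and 265 CPM in nTg and at 182, 207 and 176 in SOD1G93A, which overlapped (log2 fold change -0.37, 95% interval -0.80 to 0.07, edgeR adjusted p 0.178). In Clec7a-KO it lay at 193, 305, 321 and 228 and in SOD1G93A/Clec7a-KO at 199, 183, 190 and 191. These groups overlapped at their edge, and the difference passed narrowly (log2 fold change -0.46, SE 0.18, adjusted p 0.0448). It was lost in 13 of 30 alternatives. These were the fits without the libraries numbered 13, 15 and 16 (-0.51, adjusted p 0.0981), with no filter (-0.47, adjusted p 0.0636), with an Xist covariate (-0.44, 0.0667) and without cycling cells (-0.44, 0.0533), and those without Clec7a-KO library 2 (-0.38, adjusted p 0.124) or 3 (-0.35, 0.138), without any of the 4 SOD1G93A/Clec7a-KO libraries (-0.53 to -0.44, 0.0524 to 0.0833), and without SOD1G93A library 2 (0.0579) or 3 (0.0588) or nTg library 3 (0.0589). With library totals both contrasts passed, at -0.82 and -0.98.

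Bhlhe40 was low in microglia without the transgene. The nTg libraries had 3.64, 3.05 and 5.86 CPM (61 to 122 UMIs) and the Clec7a-KO libraries 4.67, 6.61, 1.93 and 6.94 (31 to 193 UMIs). SOD1G93A libraries had 45.5, 100 and 72.6, and SOD1G93A/Clec7a-KO libraries 66.1, 50.6, 121 and 111. Every library with the transgene was far above the highest without it. The log2 fold change was 4.15 (SE 0.48, edgeR adjusted p 2.06e-05) in SOD1G93A against nTg, a 17.7-fold higher level, and 4.11 (SE 0.41, adjusted p 2.97e-06) in SOD1G93A/Clec7a-KO against Clec7a-KO, a 17.3-fold higher level. With library totals the log2 fold changes were 3.68 and 3.58, and both calls held in all 30 alternatives.

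Bhlhe41, the other repressor of the pair, passed in 1 of the 2 comparisons of the transgene. It lay at 80.2, 111 and 136 CPM in nTg and at 124, 158 and 165 in SOD1G93A, which overlapped (log2 fold change 0.45, 95% interval -0.19 to 1.09, edgeR adjusted p 0.268). This value passed with library number as a covariate (0.90, adjusted p 0.000235) and with the replicate number as a block (0.47, 0.0259). It lay at 97.7, 99.0, 110 and 185 in Clec7a-KO and at 142, 153, 232 and 286 in SOD1G93A/Clec7a-KO (log2 fold change 0.73, SE 0.26, adjusted p 0.0329). With library totals the values were -0.01 and 0.22, neither past the threshold. The second call was also lost without SOD1G93A/Clec7a-KO library 3 (0.60, adjusted p 0.0949) or 4 (0.48, 0.131), and without Clec7a-KO library 1 (0.62, 0.0919), 2 (0.63, 0.0929) or 3 (0.67, 0.0806). It was lost as well with only the groups compared (0.66, 0.0762) and without the cluster with Ms4a7 (0.65, 0.0623). The 185, 232 and 286 are the libraries numbered 16, 13 and 15, and the call held without all 3 of them.

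**Figure D3:**
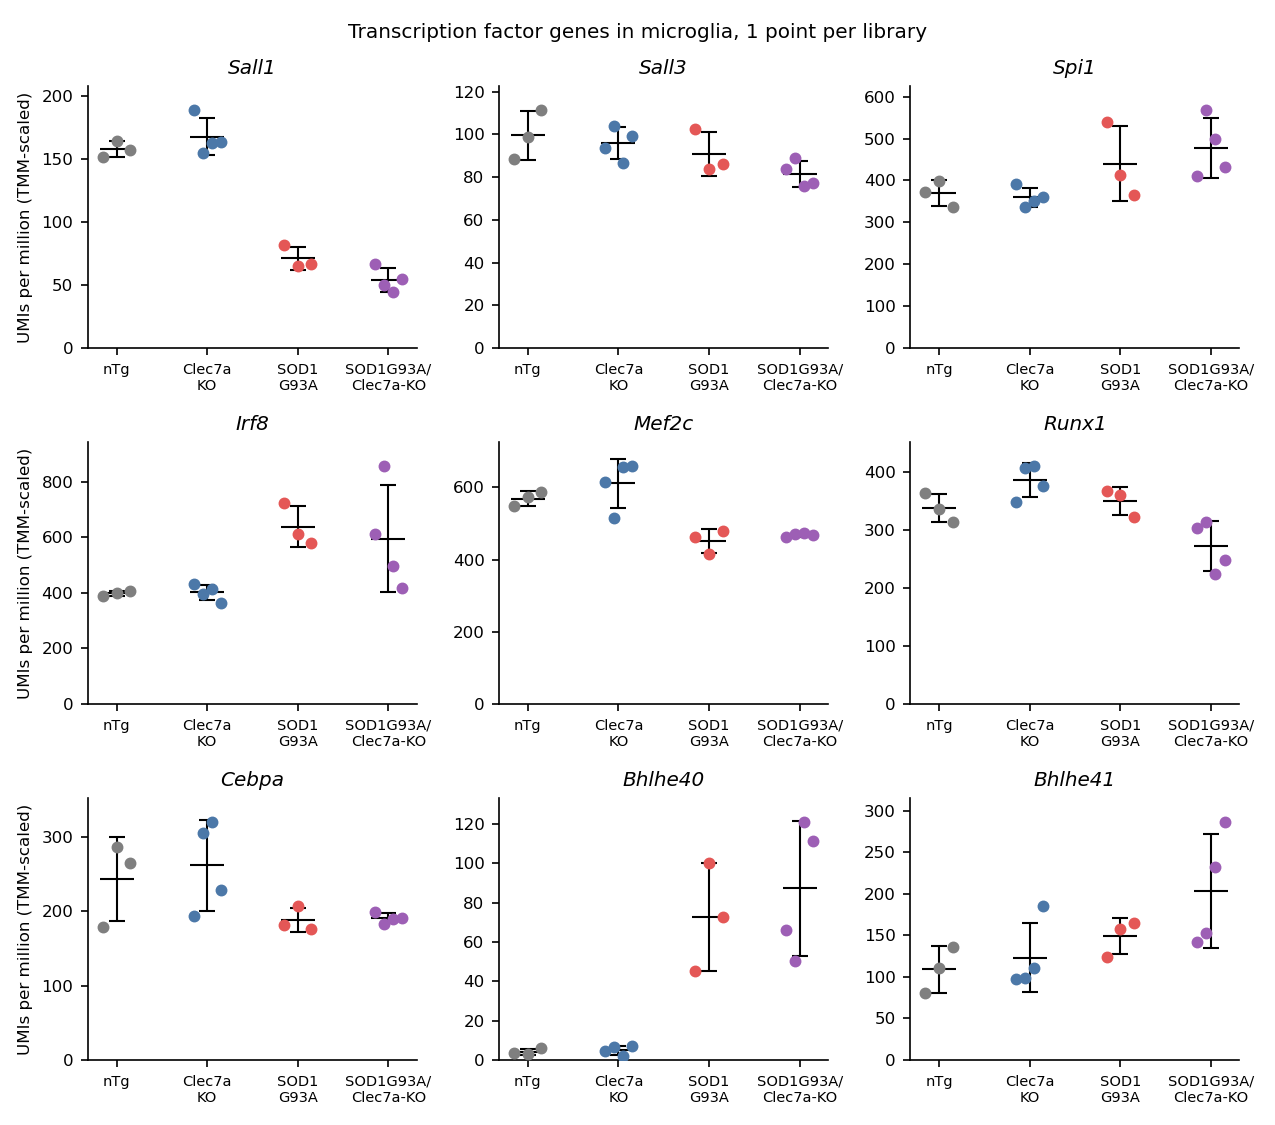
Level of each gene in microglia, with 1 point per library in 4 groups, as TMM-scaled CPM; the bar and whiskers are the mean and SD. All 7 libraries with the transgene lie below the other 7 for Sall1 and above them for Bhlhe40, while for Irf8 the SOD1G93A/Clec7a-KO libraries spread from 416 to 857.

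No member passed the test in either comparison of groups that differed in Clec7a. In SOD1G93A/Clec7a-KO against SOD1G93A, 0 of 9 passed the edgeR test (0.0179% of all genes) and 0 of 9 passed DESeq2, while 2 of 9 had an unadjusted p under 0.05 (11.3% of all genes). These were Sall1 (log2 fold change -0.40, SE 0.14, unadjusted p 0.0145) and Runx1 (-0.36, SE 0.14, unadjusted p 0.0247), each with an edgeR adjusted p of 0.441. The Runx1 levels of the groups, 304, 314, 225 and 248 against 368, 360 and 323 CPM, did not overlap (8.95% of all genes did not). In Clec7a-KO against nTg, 0 of 9 passed edgeR or DESeq2 (0.0299% of all genes for edgeR), 0 of 9 had an unadjusted p under 0.05 (2.39% of all genes), and the largest difference was 0.30 for Bhlhe40 (95% interval -0.62 to 1.22). The interaction of transgene and Clec7a passed for 0 of 9 by either tool (0% of all genes for edgeR), while 2 of 9, Runx1 and Sall1, had an unadjusted p under 0.05 (1.99% of all genes). Sall1 had the value -0.49 (SE 0.21, unadjusted p 0.0313).

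Depth differed between groups, so the share of microglia with at least 1 UMI was taken after thinning each cell to 2000 UMIs, which left out 534 of 6100 cells in nTg, 511 of 9767 in Clec7a-KO, 424 of 15661 in SOD1G93A and 348 of 20915 in SOD1G93A/Clec7a-KO. Sall1 was seen in 30.6% ± 0.898 of microglia in nTg, 31.7% ± 3.04 in Clec7a-KO, 12.8% ± 2.55 in SOD1G93A and 9.10% ± 2.36 in SOD1G93A/Clec7a-KO. Before thinning the shares were 69.7%, 67.7%, 50.6% and 34.0%. The thinned share in endothelial cells, which should lack Sall1, was 0.328% ± 0.154, at median depths of 3926 to 10226 UMIs against 5292 to 21826 in microglia. The Bhlhe40 share was 0.844% ± 0.289 in nTg, 0.953% ± 0.363 in Clec7a-KO, 10.0% ± 3.18 in SOD1G93A and 11.3% ± 3.56 in SOD1G93A/Clec7a-KO. Before thinning its shares were 3.67%, 3.59%, 43.1% and 40.0%, and no class is known to lack Bhlhe40, so no background share is given for it. At equal depth, Sall1 was thus seen in fewer microglia and Bhlhe40 in more with the transgene, as in the summed levels. A UMI share also falls with the level per cell, and these were not told apart.

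Within microglia, Sall1 was higher and Bhlhe40 lower in the homeostatic clusters 3 and 11 than in clusters 1, 2 (inflammatory) and 4 (disease-associated) (levels here are CPM of all UMIs of the cluster, without TMM factors, given as a description). Sall1 was highest in clusters 3 and 11 (207 and 197), which had homeostatic genes such as P2ry12 and Tmem119 among their leading genes, with Xist first in cluster 11, and lowest in the cluster led by disease-associated genes such as Gpnmb and Spp1 (28.4). The inflammatory cluster had 32.8, cluster 1 42.8, the cycling cluster 68.0, cluster 0, which no list led, 84.1, and cluster 5, of low depth with a median of 3377 UMIs, 109. Bhlhe40 lay at 5.31 and 4.13 in the homeostatic clusters, at 73.0 in the disease-associated cluster, at 84.3 in cluster 1 and at 85.7 in the inflammatory cluster. Over cells of all groups, Irf8 ran from 472 to 593, Spi1 from 340 to 454, Bhlhe41 from 122 to 153, Sall3 from 55.7 to 121, Runx1 from 193 to 463, Cebpa from 123 to 303 and Mef2c from 310 to 731. The groups fill the clusters unequally, and within 1 group the ranges could be narrower or wider. For Bhlhe40 they were narrower with the transgene, from 12.8 ± 5.91 CPM in cluster 3 to 82.3 ± 27.4 in the inflammatory cluster in SOD1G93A (n = 3 each, a 6.44-fold range). In SOD1G93A/Clec7a-KO it ran from 19.3 ± 10.7 in cluster 3 (n = 3) to 88.8 ± 32.1 in the disease-associated cluster (n = 4, 4.61-fold). Sall1 ran from 33.7 ± 3.26 in the disease-associated cluster to 185 ± 28.7 in cluster 3 in SOD1G93A (5.50-fold), and from 22.3 ± 5.68 to 142 ± 42.1 in SOD1G93A/Clec7a-KO (6.36-fold). In nTg, Irf8 lay at 245 ± 11.3 CPM in cluster 5 and 511 ± 16.5 in cluster 3 (n = 3 each), and Runx1 at 51.1 ± 42.8 in cluster 5 (n = 3) and 430 ± 58.3 in cluster 11 (n = 2). In SOD1G93A the lowest and highest cluster means were 522 ± 75.5 and 639 ± 73.3 for Irf8 and 222 ± 69.1 and 430 ± 53.9 for Runx1 (n = 3 each). Against all other cells, haemoglobin genes led cluster 5, and Ms4a7, a gene of border-associated macrophages, was among the leading genes of the disease-associated cluster. Clusters 3 and 11 together held 82.0% to 91.1% of microglia in libraries without the transgene and 1.53% to 9.86% in those with it.

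**Figure D4:**
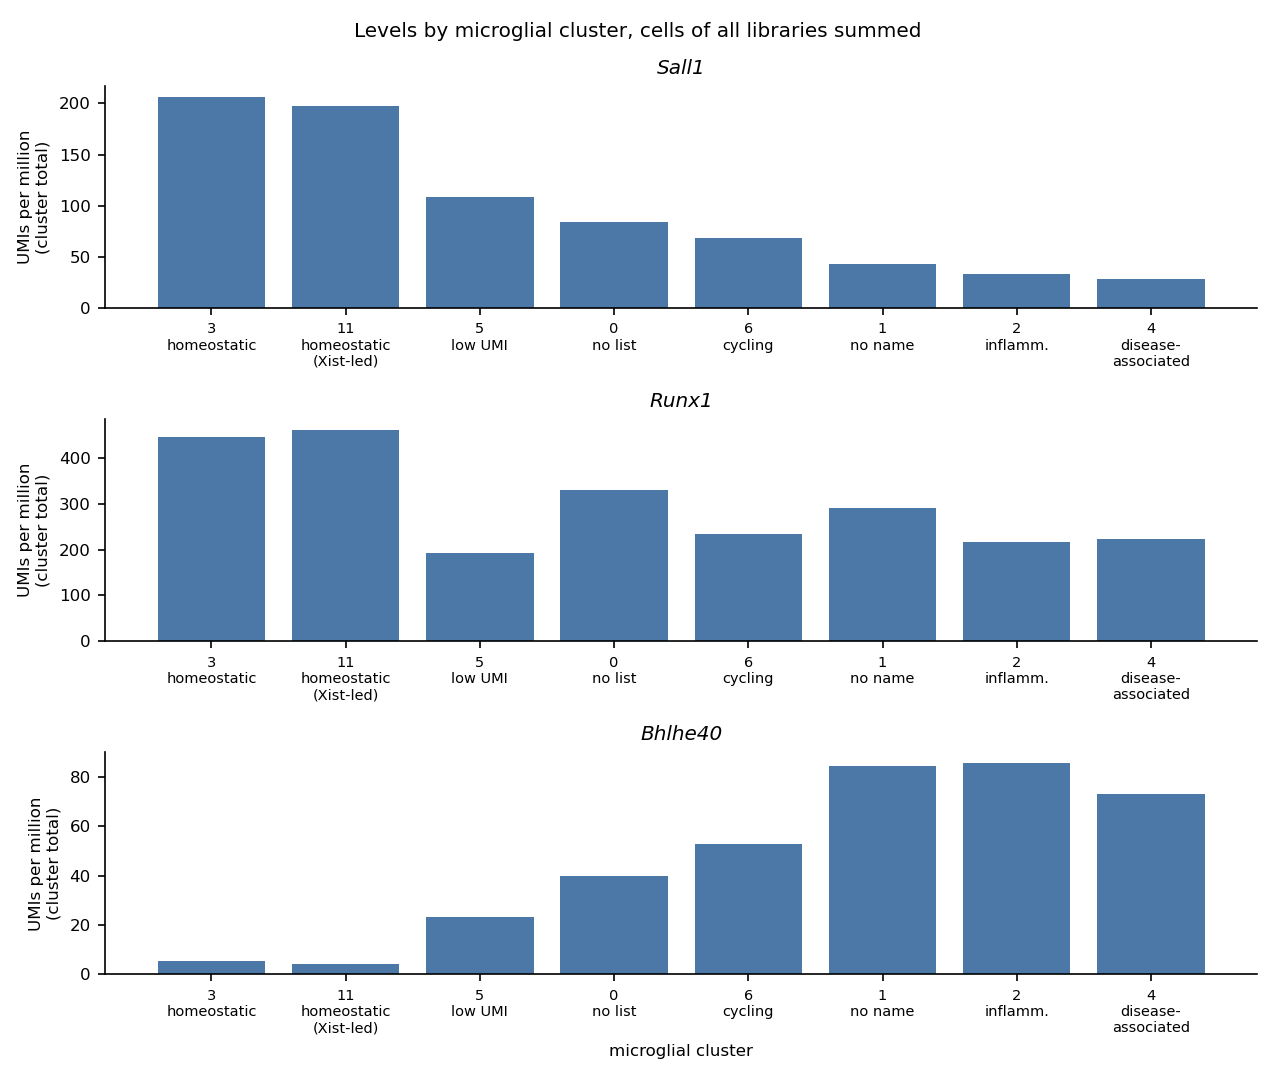
Level of Sall1, Runx1 and Bhlhe40 (CPM, cells of all libraries summed) in the 8 microglial clusters, from cluster 3 on the left to the disease-associated cluster on the right. Sall1 falls from 207 in cluster 3 to 28.4 in the disease-associated cluster, and Bhlhe40 runs from 5.31 in cluster 3 to 85.7 in the inflammatory one. Groups are pooled here and fill the clusters unequally; within SOD1G93A the same Bhlhe40 levels were 12.8 and 82.3.

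Microglia of the clusters in which the homeostatic list was the highest (3, 5 and 11, called homeostatic-led, 192 to 3636 cells per library) were also compared across groups. These clusters are not 1 even state: cluster 5, of low depth and led by haemoglobin genes, gave 5.99% to 16.2% of the pooled cells in nTg libraries, 4.05% to 12.4% in Clec7a-KO, 44.3% to 72.5% in SOD1G93A and 37.0% to 70.9% in SOD1G93A/Clec7a-KO. Cluster 11 held 3125 cells of nTg and 0 of SOD1G93A. In the 3 clusters together, 1 of 9 genes passed in SOD1G93A against nTg (10.7% of all genes), namely Bhlhe40 (log2 fold change 2.54, SE 0.38, edgeR adjusted p 0.000616). Without SOD1G93A library 1 the count was 2 (8.54% of all genes). The Bhlhe40 level there was 3.94 ± 1.57 CPM (TMM-scaled, n = 3) in nTg and 22.7 ± 9.93 (n = 3) in SOD1G93A. Sall1 lay at 181 ± 4.49 and 141 ± 23.2, a log2 fold change of -0.36 (SE 0.18, adjusted p 0.242). In SOD1G93A/Clec7a-KO against Clec7a-KO, 3 of 9 passed (18% of all genes): Sall1 fell (-0.77, SE 0.16, adjusted p 0.00409), Runx1 fell (-0.60, SE 0.18, adjusted p 0.0286) and Bhlhe40 rose (2.83, SE 0.34, adjusted p 4.84e-05). Sall1 lay there at 194 ± 17.1 CPM in Clec7a-KO (n = 4) and 112 ± 25.7 in SOD1G93A/Clec7a-KO (n = 4). Without cluster 5, an alternative chosen after the data were seen, 0 of 9 passed in SOD1G93A against nTg (0.538% of all genes; Bhlhe40 1.51, adjusted p 0.201, and Sall1 -0.06, 0.958). Bhlhe40 alone passed in SOD1G93A/Clec7a-KO against Clec7a-KO (1 of 9, where 3% of all genes passed; 2.38, adjusted p 0.00345), while Sall1 (-0.51, 0.115) and Runx1 (-0.36, 0.252) did not. In cluster 3 alone, 0 and 1 passed (0.769% and 2.48% of all genes), with Bhlhe40 at 1.92 (adjusted p 0.16) in the first comparison. The Runx1 call of the 3 clusters was also lost without SOD1G93A/Clec7a-KO library 3 (-0.47, adjusted p 0.108) or 4 (-0.53, 0.0877) or Clec7a-KO library 2 (-0.56, 0.0833) or 3 (-0.56, 0.079), and 5 of 9 passed without Clec7a-KO library 4 (22.9% of all genes). In cluster 3 without TMM factors, Sall1 lay at 205 ± 6.02 in nTg (n = 3), 209 ± 26.1 in Clec7a-KO (n = 4), 185 ± 28.7 in SOD1G93A (n = 3) and 142 ± 42.1 in SOD1G93A/Clec7a-KO (n = 3). The part of the cluster shares in the Sall1 difference over all microglia was not tested.

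Cells that held a Bhlhe40 UMI were compared with cells of the same library that did not, weighted over 4 bins of depth so that both kinds weigh the same depths, as a description without a test. Sall1 was lower in cells with a Bhlhe40 UMI in 3 of 3 SOD1G93A libraries (log2 ratio -0.52 to -0.31) and in 4 of 4 SOD1G93A/Clec7a-KO libraries (-0.67 to -0.31). The mean was 52.5 ± 2.90 against 71.2 ± 5.84 CPM in SOD1G93A and 35.3 ± 5.84 against 51.6 ± 12.8 in SOD1G93A/Clec7a-KO. Irf8 was higher in cells with a Bhlhe40 UMI in 3 of 3 and 4 of 4 libraries, by 0.04 to 0.11 on the log2 scale, and Bhlhe41 likewise, by 0.03 to 0.15. Spi1 and Mef2c were lower in 3 of 3 and 4 of 4. The other members were mixed, with Runx1 lower in 2 of 3 SOD1G93A and 3 of 4 SOD1G93A/Clec7a-KO libraries, and Sall3 and Cebpa each in 1 of 3 and 2 of 4. Without the transgene fewer cells held a Bhlhe40 UMI and the libraries were less alike. Sall1 and Spi1 were lower in 4 of 4 Clec7a-KO and 2 of 3 nTg libraries, and Mef2c in 4 of 4 and 1 of 3. Irf8 was higher in 3 of 4 Clec7a-KO and 1 of 3 nTg libraries, and Bhlhe41 in 2 of 4 and 2 of 3. Cells with a Bhlhe40 UMI were deeper, for example a median of 11476 against 8168.5 UMIs in SOD1G93A library 1, and the weighting evens this out only between bins. The cells were not matched for cluster. In SOD1G93A, Sall1 lay at 185 ± 28.7 in cluster 3 and 33.7 ± 3.26 in the disease-associated cluster, and Bhlhe40 at 12.8 ± 5.91 and 78.3 ± 13.1. The part of the clusters in these differences was not tested, and the share of all genes that differ alike was not computed.

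**Figure D5:**
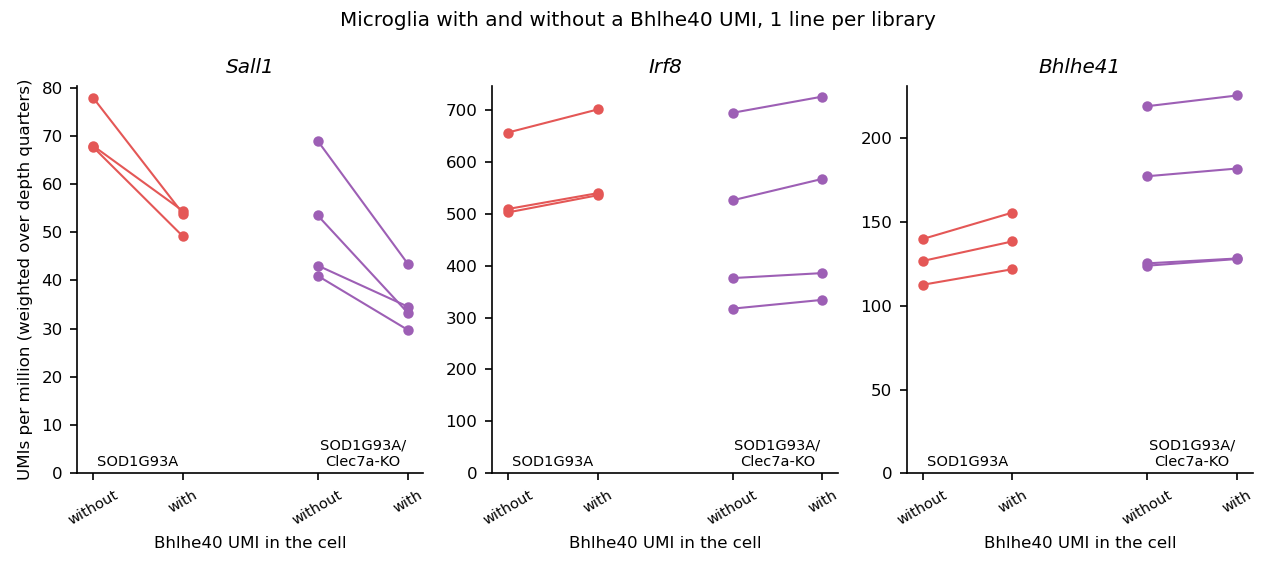
Level of Sall1, Irf8 and Bhlhe41 (CPM of the cells' own total, weighted over 4 depth bins) in microglia without and with a Bhlhe40 UMI, with 1 line per library of SOD1G93A (red) and SOD1G93A/Clec7a-KO (purple). All 7 lines fall for Sall1 and rise for Irf8 and Bhlhe41. Cells were not matched for cluster.

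Outside microglia, the calls were mainly of Spi1, Irf8, Runx1 and Cebpa in astrocytes. The 9 members were looked at in 5 classes (astrocytes, endothelial, ependymal and mural cells and oligodendrocyte precursors), and tested where the filter on low counts kept them. Of these member-by-class tests, 5 passed in SOD1G93A against nTg (7.5% of all gene-by-class tests) and 7 in SOD1G93A/Clec7a-KO against Clec7a-KO (8.76%). The number of member tests that the filter kept is not given here, so these counts are not shares. All calls of the first contrast and most of the second were in astrocytes, where far more genes passed than in the pooled tests. The first count was 8 without SOD1G93A library 3 (4.88% of all) or Clec7a-KO library 1 (7.31%). The second was 12 without Clec7a-KO library 1 (7.87%) and 4 without SOD1G93A/Clec7a-KO library 1 or 2 or Clec7a-KO library 2 or 3 (6.05% to 7.33%). In astrocytes 32.6% and 33.9% of all genes passed, and in ependymal cells 1.05% and 1.60%. In oligodendrocyte precursors 1.61% and 4.95% passed, in endothelial cells 0.636% and 0.833%, and in mural cells 0.106% and 0.931%. In astrocytes Irf8 rose by 4.20 (SE 0.86, edgeR adjusted p 0.00121) and 3.98 (SE 0.62, adjusted p 8.58e-05) on the log2 scale, from 1.79 ± 0.766 CPM in nTg to 35.4 ± 33.3 in SOD1G93A and from 4.32 ± 3.63 in Clec7a-KO to 74.9 ± 70.0 in SOD1G93A/Clec7a-KO. Spi1 rose by 2.89 (adjusted p 0.00174) and 3.65 (adjusted p 1.5e-05), Runx1 by 3.99 (adjusted p 0.000231) and 3.09 (adjusted p 0.00011) and Cebpa by 1.44 (adjusted p 0.000776) and 1.89 (adjusted p 1.59e-05). Sall3 fell in astrocytes of SOD1G93A (-0.65, SE 0.18, adjusted p 0.0112), from 44.3 ± 2.58 to 28.5 ± 4.61.

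The summed level of the 12 microglial markers (CPM of all UMIs without TMM factors, here and below) moved with these calls. In astrocytes it lay at 190 to 418 CPM in nTg, 206 to 913 in Clec7a-KO, 1644 to 5331 in SOD1G93A and 2380 to 12950 in SOD1G93A/Clec7a-KO, against 35030 to 50890 in microglia. In libraries with the transgene, Spi1 had 7.25 to 20.0 UMIs per 1000 UMIs of these markers in astrocytes and 7.80 to 10.3 in microglia. Irf8 had 4.22 to 13.6 against 8.16 to 13.8, and Runx1 3.11 to 6.70 against 3.96 to 7.03. Cebpa had 4.02 to 13.5 in astrocytes against 2.94 to 3.98 in microglia, without overlap. The part of microglial RNA in these calls was not tested. With library totals, Spi1, Irf8, Runx1 and Cebpa still passed in astrocytes in both contrasts. Spi1 also passed in ependymal cells of SOD1G93A/Clec7a-KO against Clec7a-KO (log2 fold change 2.94, SE 0.72, adjusted p 0.0498, lost with library totals). In oligodendrocyte precursors the same contrast gave Spi1 at 2.01 (SE 0.50, adjusted p 0.0273) and Irf8 at 2.50 (SE 0.65, adjusted p 0.036). Summed microglial markers in ependymal cells lay at 122 to 824 CPM without and 577 to 3726 with the transgene, and in oligodendrocyte precursors at 109 to 466 and 508 to 2166. Sall1 and Bhlhe40 passed in 0 of the 5 classes in either contrast. Outside astrocytes 0.106% to 4.95% of all genes passed, so that a count of 0 there is near the share. In astrocytes 32.6% and 33.9% passed.

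Of 15 relatives in the same families, 10 were tested in microglia. Of these, 2 rose and 4 fell in SOD1G93A against nTg, where 19.7% of all genes rose and 13.2% fell. The median log2 fold change was 0.02 beside 0.01 for all genes. In SOD1G93A/Clec7a-KO against Clec7a-KO, 2 rose and 4 fell (median -0.15), where 25.6% of all genes rose and 20.9% fell. The RUNX relatives Runx2 and Runx3 rose. Runx2, the factor of bone formation, went from 3.60 ± 1.34 CPM in nTg to 10.9 ± 2.03 in SOD1G93A (log2 fold change 1.60, SE 0.26, edgeR adjusted p 0.000392). Runx3, known from lymphocytes, went from 0.228 ± 0.0674 to 1.96 ± 0.658 (3.18, SE 0.57, adjusted p 0.000735). Its nTg libraries lay at 0.179, 0.200 and 0.305 CPM, near a floor of 3 UMIs (at most 0.228 CPM in nTg), so the size of this difference is uncertain. Sall2 fell from 7.59 ± 0.941 to 3.51 ± 0.505 CPM (log2 fold change -1.11, SE 0.18, adjusted p 0.000393) and Irf4 from 4.92 ± 0.822 to 1.25 ± 0.142 (-1.97, SE 0.34, adjusted p 0.000538). These directions were the same with library totals, with which 2 of the 10 relatives rose and 5 fell in the first contrast (median -0.43) and 2 rose and 7 fell in the second (median -0.66).

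Of 16 further transcription factors of macrophages and microglia, 4 rose and 6 fell in SOD1G93A against nTg (median -0.34). There 19.7% of all genes rose and 13.2% fell. In SOD1G93A/Clec7a-KO against Clec7a-KO, 4 rose and 8 fell (median -0.58), where 25.6% of all genes rose and 20.9% fell. Id2, an inhibitor of helix-loop-helix factors, rose from 314 ± 16.7 to 785 ± 142 CPM (log2 fold change 1.32, SE 0.18, adjusted p by edgeR 0.000115) and Mitf, a factor of lysosomal genes, from 31.4 ± 1.67 to 55.6 ± 6.42 (0.83, SE 0.17, adjusted p 0.0024). Mitf did not pass with library totals (0.37, adjusted p 0.133). Klf2 fell from 2095 ± 879 to 423 ± 105 CPM (-2.31, SE 0.34, adjusted p 0.00019) and Klf4 from 594 ± 128 to 194 ± 33.8 (-1.61, SE 0.28, adjusted p 0.000653). With library totals 2 rose and 10 fell in the first contrast, and 1 rose and 11 fell in the second.

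Of 10 microglial genes linked to Sall1, 0 rose and 7 fell in SOD1G93A against nTg (median -1.17), where 13.2% of all genes fell. In SOD1G93A/Clec7a-KO against Clec7a-KO, 0 rose and 8 fell (median -1.48), where 20.9% of all genes fell. All of the 10 but Sparc also stand in the homeostatic list that served to call microglial clusters homeostatic. A fall of this list and a fall of homeostatic genes are thus nearly the same result, and a link to Sall1 was not tested. Tmem119 fell from 761 ± 36.8 to 238 ± 66.7 CPM (log2 fold change -1.67, SE 0.19, adjusted p by edgeR 1.52e-05) and Slc2a5, a fructose transporter of microglia, from 131 ± 11.3 to 24.6 ± 2.48 (-2.41, SE 0.38, adjusted p 0.000308). Sparc, a secreted matrix protein, lay at 2056 ± 49.7 and 2123 ± 160 (0.05, SE 0.21, adjusted p 0.886, and -0.40 with library totals, adjusted p 0.0714). With library totals 0 rose and 8 fell in the first contrast and 0 rose and 9 fell in the second.

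Of 10 myeloid genes linked to PU.1, 3 rose and 0 fell in SOD1G93A against nTg (median 0.33), where 19.7% of all genes rose and 13.2% fell. In SOD1G93A/Clec7a-KO against Clec7a-KO, 3 rose and 2 fell (median 0.27), where 25.6% of all genes rose and 20.9% fell. Csf2ra, a chain of the GM-CSF receptor, rose from 96.8 ± 14.1 to 277 ± 21.7 CPM (log2 fold change 1.52, SE 0.18, adjusted p by edgeR 3.12e-05) and Cd68, a lysosomal protein, from 360 ± 37.5 to 1101 ± 159 (1.61, SE 0.20, adjusted p 3.26e-05). Csf1r, the receptor on which microglia depend, lay at 2197 ± 91.8 and 1666 ± 138 (-0.40, SE 0.26, adjusted p 0.257), and Itgam at 451 ± 34.7 and 398 ± 37.4 (-0.18, adjusted p 0.383). With library totals 3 rose and 3 fell in the first contrast, and 3 rose and 4 fell in the second. The medians were then -0.13 and -0.25, beside -0.44 and -0.51 for all genes.

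Genes known to respond to warm dissociation (37 °C here) also differed between these groups. Of 22, 3 rose and 6 fell in SOD1G93A against nTg (median -0.46), where 19.7% of all genes rose and 13.2% fell. In SOD1G93A/Clec7a-KO against Clec7a-KO, 3 rose and 11 fell (median -0.50), where 25.6% of all genes rose and 20.9% fell. With library totals 1 rose and 14 fell in the first contrast, and 0 rose and 17 fell in the second. Their summed level in microglia, as CPM of all UMIs without TMM factors, was 50173 to 62266 without the transgene and 26907 to 38612 with it. TMM factors were higher in libraries without the transgene, and scaled by them these ranges overlap. Jun fell from 5497 ± 401 to 2305 ± 480 CPM (log2 fold change -1.25, SE 0.23, adjusted p by edgeR 0.00102) and Egr1, which also stands in the list of other factors, from 3667 ± 281 to 1669 ± 136 (-1.14, SE 0.23, adjusted p 0.00206). Ccl3 rose from 1418 ± 33.4 to 3640 ± 1333 (1.36, SE 0.32, adjusted p 0.00491) and Rgs1 from 264 ± 25.0 to 484 ± 154 (0.88, SE 0.23, adjusted p 0.0102), the latter not with library totals (0.41, adjusted p 0.185). The part of dissociation in the differences of the 9 genes was not tested.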

How the data were processed

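RNA of all cells of whole spinal cords was measured in 14 single-cell libraries, after enzymatic dissociation at 37 °C and removal of myelin with beads, per the labels' protocols. The authors deposited raw UMI counts per gene and barcode, 1 matrix per library, whose header names software version 3.0.2. Cell Ranger, Seurat, DESeq2 and the mouse build mm10 stand in the submitters' processing notes, and the rule for calling cells is not given in the sources used here. Total counts were 28819852 to 141204910 UMIs per library.

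Barcodes with under 1000 UMIs or 500 genes (7127), over 15% mitochondrial UMIs (4963), or scored as doublets against simulated pairs (7046, at 0.8% per 1000 cells) were removed. The remaining cells were clustered on 2000 variable genes without the 9 members (30 principal components, 15 neighbours, Leiden resolution 1.0, scanpy 1.11.5) and clusters were named from marker lists. The UMIs of each class were added up within a library and the sums tested with edgeR 4.0.16 (TMM factors, its filter on low counts, quasi-likelihood F-test, two-sided, all 14 libraries in 1 fit, adjusted p under 0.05). The microglial test was also run on simulated counts with means, depths and spread taken from these data, and its outcome is not reported here. SEs were derived from the fold change and F. Alternatives were DESeq2 1.42.0, RLE factors, no filter, only the groups compared, a replicate block, covariates, library totals, fewer clusters of cells, and each library and the 3 numbered 13, 15 and 16 left out. Genes named are all members, the 3 genes most like each over classes (1 of them is not reported here), and from each gene list the 2 with the lowest p in each direction in SOD1G93A against nTg (Csf1r, Itgam and Sparc are those with the lowest p in a direction without calls). The members and lists were chosen with earlier results of these data known. Intervals of fold changes and SDs of levels and shares cover the spread between libraries.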

Additional observations from a re-analysis of the deposited data

Results flagged for a closer look

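Bhlhe41 in microglia stood apart in 1 Clec7a-KO library: library 4 had 184.7 CPM (TMM-scaled) and the other 3 had 97.7, 99.0 and 110, a gap above Dixon's 95% critical value for 4 samples. This library is number 16 in the labels, and those numbered 13 and 15 (SOD1G93A/Clec7a-KO libraries 3 and 4) had the highest Bhlhe41 of their group, 232 and 286, with Cebpb higher in all 3 (1619 to 2100 CPM against 555 to 1149). Of 18 groups of 4 looked at in this way, chance flags about 1 in 20.

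In some other classes the groups with and without the transgene lay apart in the direction opposite to microglia, with no overlap in either class. This difference between classes was not tested. The cases below were picked for this pattern among the members and classes looked at. The number of cases looked at and the share of all genes with the pattern are not given here. How many such cases chance alone would give is thus not known. Runx1 in SOD1G93A/Clec7a-KO against Clec7a-KO was 28.37 ± 21.1 against 3.62 ± 1.37 CPM in astrocytes and 7.989 ± 2.35 against 3.30 ± 0.721 in endothelial cells (SD, n = 4 each), while microglia had 272.6 against 385.9. The astrocyte difference passed the edgeR test, and the endothelial one did not (log2 fold change 1.29, edgeR adjusted p 0.183). Summed microglial markers in endothelial cells lay at 722 to 2315 CPM in SOD1G93A/Clec7a-KO and 158 to 565 in Clec7a-KO, and their part was not tested. Mef2c in SOD1G93A against nTg was 23.52 ± 11.1 against 11.3 ± 0.865 CPM in ependymal cells (n = 3 each), and 451.6 against 569.3 in microglia. Bhlhe40 in the same contrast was 55.52 ± 25.7 against 120 ± 36.2 CPM in ependymal cells, and 72.7 against 4.182 in microglia. Neither ependymal difference passed (0.88, edgeR adjusted p 0.654, and -1.03, 0.479), and microglial markers lay at 963 to 3726 CPM in these cells of SOD1G93A and 147 to 201 in nTg.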

How the results depend on the processing

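Sall1 and Bhlhe40 in both transgene contrasts kept direction and call in all 30 alternatives, and Runx1 in SOD1G93A/Clec7a-KO against Clec7a-KO in 29, all but that without the libraries numbered 13, 15 and 16. The count of members called in SOD1G93A against nTg (3) was 5 with library totals (43.7% of all genes). In SOD1G93A/Clec7a-KO against Clec7a-KO (8) it was 5 with no filter on low counts (23.3% of all genes), 5 with only the groups compared (41.8%), 4 without the libraries numbered 13, 15 and 16 (42%), and 4 to 9 with 1 library left out (40.3% to 49.4%). In homeostatic-led microglia (1) it was 2 with DESeq2 (6.66%), 0 in cluster 3 alone (0.769%), 0 without cluster 5 (0.538%) and 1 to 2 with 1 library left out (4.72% to 14%), and in SOD1G93A/Clec7a-KO against Clec7a-KO (3) it was 5 with DESeq2 (9.63%), 6 with library totals (21.9%), 1 in cluster 3 alone (2.48%), 1 without cluster 5 (3%) and 2 to 5 with 1 library left out (10.5% to 22.9%). In other classes, SOD1G93A against nTg (5) gave 9 with DESeq2 (3.31% of all gene-by-class tests) and 5 to 8 with 1 library left out (4.88% to 7.9%), and SOD1G93A/Clec7a-KO against Clec7a-KO (7) gave 4 to 12 (6.05% to 9.72%). The causes were not tested. In all microglia, the 3 other comparisons gave 0 in every alternative run. In the main fit 0.0179%, 0.0299% and 0% of all genes passed in them, so that 0 is near the share. The interaction could not be fitted with only the groups compared.

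Values that changed sign were all short of the threshold. With library totals these were, in SOD1G93A against nTg, Spi1 (-0.1920), Runx1 (-0.4001), Bhlhe41 (-0.0055) and, in homeostatic-led microglia, Spi1 (-0.0047), in SOD1G93A/Clec7a-KO against Clec7a-KO Spi1 (-0.1123), in SOD1G93A/Clec7a-KO against SOD1G93A Spi1 (-0.0190), Mef2c (-0.0786) and Cebpa (-0.1093), and in Clec7a-KO against nTg Irf8 (-0.0472). With library number as a covariate they were Runx1 (-0.0634, SOD1G93A against nTg), Irf8 (0.0496), Cebpa (-0.0068) and Bhlhe40 (-0.1042) in SOD1G93A/Clec7a-KO against SOD1G93A, Irf8 (-0.0097) in Clec7a-KO against nTg, and Irf8 (0.0592) and Bhlhe41 (-0.1080) in the interaction. Cebpa in SOD1G93A/Clec7a-KO against SOD1G93A was -0.0291 with no filter, -0.0072 with only the groups compared and -0.0077 with an Xist covariate, and Irf8 in Clec7a-KO against nTg was -0.0023, -0.0119 and -0.0630. Without the libraries numbered 13, 15 and 16, Irf8 (0.2025), Bhlhe40 (-0.3178) and Bhlhe41 (-0.0129) in SOD1G93A/Clec7a-KO against SOD1G93A, Bhlhe41 (-0.0893) in Clec7a-KO against nTg and Irf8 (0.1463) in the interaction changed sign. Bhlhe40 in the interaction was 0.0251 without the cluster with Ms4a7. In cluster 3 alone, Sall3 was 0.0148 and Runx1 0.0510, and without cluster 5 Runx1 was 0.0509 (SOD1G93A against nTg).

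With 1 library left out, ranges across 0 were -0.0443 to 0.1185 for Runx1 in SOD1G93A against nTg and -0.0339 to 0.3050 for Spi1 in homeostatic-led microglia. In SOD1G93A/Clec7a-KO against SOD1G93A they were -0.3307 to 0.0334 for Irf8, -0.0047 to 0.0960 for Mef2c and -0.0310 to 0.0894 for Cebpa. In Clec7a-KO against nTg they were -0.1281 to 0.0402 for Sall3, -0.0943 to 0.0264 for Spi1, -0.0280 to 0.0525 for Irf8, -0.0705 to 0.2427 for Cebpa and -0.0932 to 0.3658 for Bhlhe41. In the interaction they were -0.3387 to 0.0382 for Irf8, -0.2263 to 0.0860 for Cebpa and -0.3313 to 0.2622 for Bhlhe40.

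With a replicate block, 4 and 8 members were called in microglia (37.8% and 51.7% of all genes) and 10 in other classes in SOD1G93A against nTg (8.08% of all gene-by-class tests), and Bhlhe41 in Clec7a-KO against nTg was -0.0460. The titles number the replicates and give no shared animal, litter or day: 10 of 19 same-numbered pairs correlated above 0.1 (-0.163 to 0.381) and 5 of 14 libraries were closest to their own number, so the numbers were not taken to pair the samples. Of the pairs numbered 1, 5 of 6 were above 0.1, as was the pair numbered 4, and a batch shared by some of them was not tested.

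Genes called in SOD1G93A against nTg numbered 3515 with the Xist covariate beside 5501. In SOD1G93A/Clec7a-KO against SOD1G93A, DESeq2 called 42 and the fit without a filter 12 beside 3. In homeostatic-led microglia cluster 3 alone gave 71 beside 1447, as did the fit without cluster 5, and in SOD1G93A/Clec7a-KO against Clec7a-KO they gave 229 and 395 beside 2422, with fewer cells. All 72 class levels moved by under 1 SD at a Leiden resolution of 0.5, and the 36 shares of cells were higher without thinning. The Bhlhe40 levels without the transgene rest on 31 to 193 UMIs per library.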
